A study of Mus musculus with 6 samples.

Results

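Gprc5a and Ncs1 were examined together with their closest relatives in primary murine osteoblasts stimulated with the anaphylatoxin C5a. The 6 members are Gprc5a and its paralogs Gprc5b and Gprc5c, and Ncs1 with the related calcium sensors Hpcal1 and Hpcal4. Each was taken as the gene that a single-gene probeset names, with the probeset of highest mean where a gene has several, so that 6 of 19938 named genes and 6 of 35556 probesets are described. Gprc5a and Ncs1 were chosen by their change between unstimulated and C5a cultures on these same arrays, and the other 4 because they belong to the same families. The changes of Gprc5a and Ncs1 are therefore given as a description, without a test.

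Osteoblasts were grown out from the bones of 3 male wild-type mice (C57BL6/J, aged 8 to 12 weeks), numbered 2, 4 and 5, used at passage 2 to 3 and differentiated osteogenically for 14 days. On day 15, 1 culture of each mouse spent 4 h in proliferation medium alone (unstimulated, n = 3) and 1 culture spent 4 h in the same medium with recombinant murine C5a (n = 3). Each RNA was hybridized to its own array, and the values are log2 intensities per probeset after normalization by the robust multiarray average (RMA), so that a difference of 1 is a doubling. Differences are C5a minus unstimulated throughout, and the number of arrays limits the precision.

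GPRC5 proteins are orphan receptors of family C, the group of G-protein-coupled receptors that also holds the metabotropic glutamate and calcium-sensing receptors, but they have a short extracellular part. Gprc5a was first described as a gene induced by retinoic acid and is best known from lung epithelium. Ncs1, Hpcal1 and Hpcal4 encode neuronal calcium sensor proteins, small EF-hand proteins, several of which bind membranes through a fatty acid tail. NCS1 binds phosphatidylinositol 4-kinase beta and inositol trisphosphate receptors, and is also expressed outside the nervous system.

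The arrays differed between mice in the level of macrophage markers. Of 14 markers of macrophages and osteoclasts, the mean level was 9.50 to 10.15 in the 4 cultures of mice 2 and 4 and 6.56 and 6.76 in the unstimulated and C5a culture of mouse 5. Not all markers of the list differed alike, and the osteoclast genes Ctsk and Acp5 had ranges between mice of 0.54 and 1.04, against 4.76 for Cd68. C5ar1, the C5a receptor, had means over both cultures of 8.98, 9.09 and 5.63 for mice 2, 4 and 5. It had 9.11, 9.41 and 5.17 without and 8.84, 8.77 and 6.09 with C5a, and was higher with C5a in mouse 5 only. The 5.17 of mouse 5 lay below the array medians of 5.89 to 5.93. In bulk RNA, fewer cells of a type and less RNA per cell cannot be told apart. Of the 8 measured osteoblast markers, the collagen genes Col1a1 and Col1a2 and the matrix gene Sparc differed between mice by 0.14 to 0.41. Alpl, Sp7, Dmp1, Phex and Ibsp, which mark osteoblast differentiation and mineralization, differed by 1.86 to 5.46. Mouse 5 had the lowest mean of both cultures in Alpl, Dmp1, Phex and Ibsp, and mouse 2 in Sp7. Ibsp had means of 11.51, 12.75 and 7.29 in mice 2, 4 and 5, and Phex had 8.73, 6.70 and 5.38. The cells of each mouse gave both of its cultures, and the number in the sample names was taken as that of the mouse.

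Gprc5a was higher with C5a in all 3 mice. Its probeset (10542335, GRCm38.p6 chromosome 6, gene at 135065662 to 135084709) had 6.85, 6.85 and 6.63 in the unstimulated cultures of mice 2, 4 and 5 and 8.94, 8.37 and 8.60 in their C5a cultures. The groups did not overlap, and the lowest C5a value lay 1.52 above the highest unstimulated value. The unstimulated cultures were close to each other, at 6.78 ± 0.12 (SD, n = 3), and the C5a cultures had 8.64 ± 0.28 (SD, n = 3). The log2 fold change was thus 1.86 (SE, standard error, 0.16), or 3.63-fold. Within the mice the change was 2.09, 1.52 and 1.97. Over all 35556 probesets it had the 16th highest log2 fold change.

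Ncs1 behaved alike in these cultures. The probeset (10471129, GRCm38.p6 chromosome 2, gene at 31245708 to 31295989) had 7.85, 8.25 and 8.09 without C5a and 9.94, 9.68 and 9.64 with C5a in mice 2, 4 and 5. All C5a cultures lay above all unstimulated ones, by at least 1.39. The mean was 8.06 ± 0.20 without and 9.75 ± 0.17 with C5a (SD, n = 3 in both groups), which gives 1.69 as the log2 fold change (SE 0.13), or 3.22-fold. Mice 2, 4 and 5 differed by 2.09, 1.43 and 1.55, and Ncs1 stood 23rd from the top of all probesets.

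Of all probesets, 7.89% had 3 C5a arrays above all 3 unstimulated arrays, and 18.3% were higher in all mice. With a change of at least 1.52 in each mouse, the smallest change of Gprc5a, there were 7 probesets, of which 5 name 1 gene: Tgfbi, Itga5, Srxn1, Sema7a and Gprc5a itself. At the smallest change of Ncs1, 1.43, there were 10 probesets and 8 named genes, the others being Gm7265 and Chst11. These limits are the smallest changes of the chosen genes themselves, so that the counts follow from the choice and describe only which probesets lie beside them, and the genes were picked out after their values were seen. Tgfbi and Itga5 encode a matrix protein and an integrin subunit, Srxn1 an antioxidant enzyme, Sema7a a membrane-anchored semaphorin and Chst11 a sulfotransferase of chondroitin chains. At an adjusted p under 0.05 limma called 5 probesets, 0.0141% of 35556, and Gprc5a and Ncs1 were not among them.

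**Figure D1:**
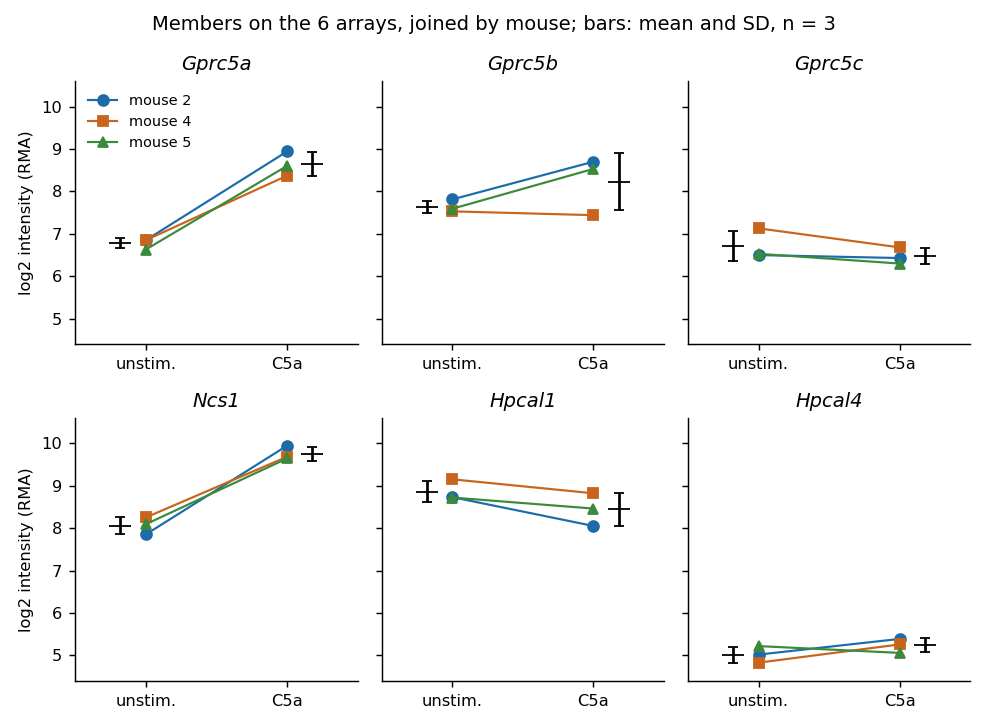
Log2 intensity (RMA) of the 6 members on the 6 arrays. Mouse 2 is drawn as circles, mouse 4 as squares and mouse 5 as triangles, lines join the unstimulated (unstim.) and the C5a culture of a mouse, and the black bars beside them give the mean and SD (n = 3). The lines of Gprc5a and Ncs1 rise from below 6.9 and 8.3 to above 8.3 and 9.6, whereas those of Gprc5c and Hpcal1 slope down in each mouse and Gprc5b is flat in mouse 4.

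Averaged over both cultures, the level of Ncs1 hardly differed between animals. Mouse 2 was lowest without C5a (7.85) and highest with C5a (9.94), which the averaging evens out. The mean of both cultures was 8.90, 8.96 and 8.86 in mice 2, 4 and 5, a range of 0.10 against a median range of 0.17 over 19938 genes. For Gprc5a it was 7.89, 7.61 and 7.62, a range of 0.28. C5ar1 had a range of 3.46, and 99.7% of genes had a smaller one. Mouse 5 had changes of 1.97 in Gprc5a and 1.55 in Ncs1, both between those of mice 2 and 4. Its C5ar1 and macrophage marker levels were low, and it had the lowest Alpl, Dmp1, Phex and Ibsp of the mice. Whether the changes of Gprc5a and Ncs1 depend on these levels was not tested. The median change of the macrophage and osteoclast markers was -0.33, -0.50 and 0.19 in mice 2, 4 and 5, with 2 of 14 above 0 in the mean and 0 past a threshold, and their log2 summed intensity ran from 11.43 to 14.68 without C5a and from 11.57 to 14.35 with C5a.

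None of the paralogs of Gprc5a passed after adjustment. Gprc5b (10567355), which is abundant in brain and other tissues, had 7.81, 7.53 and 7.59 without C5a and 8.70, 7.44 and 8.53 with C5a in mice 2, 4 and 5. It was higher by 0.90 and 0.94 in mice 2 and 5 and differed by -0.09 in mouse 4, so that the groups overlapped. The mean difference was 0.58 (SE 0.33, limma adjusted p = 0.649). With the C5a array of mouse 4 left out it was 0.97 (adjusted p = 0.0949), and with that of mouse 2 left out it was 0.34 (adjusted p = 0.900). Both arrays of mouse 4 had the lowest Gprc5b of their group, and the mean over both cultures was 8.25, 7.49 and 8.06 in mice 2, 4 and 5.

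Gprc5c has 2 probesets. The brighter (10382425) had 6.50, 7.13 and 6.53 without and 6.43, 6.68 and 6.30 with C5a. The values were lower with C5a by 0.08 to 0.44 in the 3 mice, a small difference beside the spread between animals, and the log2 fold change was -0.25 (SE 0.20, limma adjusted p = 0.781). The other probeset (10382435), assigned to fewer of the Gprc5c transcripts, had 6.19, 7.20 and 6.16 without and 5.72, 6.67 and 5.93 with C5a, a log2 fold change of -0.41 (SE 0.37, adjusted p = 0.823). Both probesets were lower in 3 of 3 mice and highest in mouse 4, and neither passed after adjustment. Without the unstimulated array of mouse 4 the brighter one differed by -0.05. Of all probesets, 17.7% were lower in all mice, and 7.29% had every C5a array below every unstimulated one, as Gprc5c did not.

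Gprc5d, the last GPRC5 receptor, known from plasma cells and hair follicles, was dim. Its values ran from 3.94 to 4.25 on the 6 arrays, with a log2 fold change of 0.06 (SE 0.10, limma adjusted p = 0.931). Among the 13 measured receptors of family C outside GPRC5, such as the calcium-sensing receptor Casr and the GABA-B subunit Gabbr1, the log2 fold changes ran from -0.08 to 0.09 and 0 passed a threshold. Gpr179, Gprc6a, Grm2 and Grm3 had the smallest p in this list, at differences of -0.08, 0.04, 0.05 and -0.06 (adjusted p of at least 0.905). None of these receptors had a difference as large as that of Gprc5a. As Gprc5a was chosen by its change on these arrays, this says nothing about the family.

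Hpcal1, in contrast to Ncs1, had lower values with C5a in each mouse. Hpcal1 (10394778, GRCm38.p6 chromosome 12, gene at 17690750 to 17791944), a visinin-like calcium sensor, had 8.73, 9.15 and 8.72 without C5a and 8.05, 8.82 and 8.46 with C5a in mice 2, 4 and 5. It was lower by 0.68, 0.33 and 0.25 within the mice, while the groups overlapped because mouse 4 was high in both. The log2 fold change was -0.42 (SE 0.22, limma adjusted p = 0.611), and a block for the mouse gave an SE of 0.11 (adjusted p = 0.172). Without the C5a array of mouse 2 the log2 fold change was -0.22. A further 2 probesets match Hpcal1 along with other genes and were not used. Their log2 fold changes were -0.07 (10394837, lower in 2 of 3 mice) and -0.05 (10399671, lower in 1 of 3 mice). Hpcal4 (10507826), a relative found mainly in brain, had 5.02, 4.83 and 5.22 without and 5.39, 5.26 and 5.06 with C5a. It was higher in mice 2 and 4 and lower in mouse 5, with a log2 fold change of 0.22 (SE 0.13, adjusted p = 0.680). Its values lay between the 30.9th and the 40.7th percentile of all probesets of an array, against the 74.7th to 92.9th for Ncs1.

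The sequences before the annotated starts of Ncs1 and Hpcal1 are shown because these related sensors had log2 fold changes of opposite sign. That of Hpcal1 did not pass after adjustment (limma adjusted p = 0.611), and Ncs1 was chosen by its change. The sequences are the 250 bases before the start given by RefSeq on GRCm38.p6. Such a window was used for 4 of the 6 members, not for Gprc5a and Gprc5c. Both windows are on the plus strand, at chr2:31245673-31245922 for Ncs1 and chr12:17690559-17690808 for Hpcal1. Both windows run past the first base of the gene spans given above, but to unlike extents. Most of the Ncs1 window lies inside the gene span, which begins at 31245708. Most of the Hpcal1 window lies before the gene span, which begins at 17690750. Capitals mark matches to any of the motifs searched.
Ncs1: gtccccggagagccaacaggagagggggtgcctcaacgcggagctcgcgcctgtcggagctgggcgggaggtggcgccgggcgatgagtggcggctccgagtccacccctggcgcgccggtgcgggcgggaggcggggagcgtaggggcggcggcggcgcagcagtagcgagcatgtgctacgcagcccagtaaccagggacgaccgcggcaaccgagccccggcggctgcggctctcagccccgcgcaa
Hpcal1: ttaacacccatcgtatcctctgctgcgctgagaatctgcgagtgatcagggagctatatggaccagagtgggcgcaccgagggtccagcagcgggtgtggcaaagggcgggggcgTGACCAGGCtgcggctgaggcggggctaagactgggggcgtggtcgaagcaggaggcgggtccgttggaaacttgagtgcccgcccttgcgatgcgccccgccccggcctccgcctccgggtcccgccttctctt

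The letters searched on both strands were TGACGTCA (the cAMP response element), TGAGTCA (bound by AP-1), AGGTCA (a core element of nuclear receptors such as the retinoic acid receptors), TGACNNNGC (the core of the antioxidant response element) and GCGTGGGCG (bound by EGR factors). Of 32851 windows of the same length, 1.55%, 4.46%, 14.0%, 10.2% and 0.536% hold them. The Ncs1 window holds none of them, nor does that of Gprc5b. The Hpcal1 window holds 1 match to TGACNNNGC, which starts 135 bases before the annotated start, and that of Hpcal4 holds 1 match to AGGTCA. A match describes letters and not a binding site. The Ncs1 window is rich in G and C, at 75.6% against 66.8% for Hpcal1 and a median of 52.4% over all windows, and it holds 34 CG pairs.

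Of 9 further neuronal calcium sensors, 0 passed a threshold and 5 had log2 fold changes above 0, and their log2 fold changes ran from -0.44 to 0.12 with a median of 0.00. Hpca, hippocalcin, had the smallest p, with a log2 fold change of 0.12 (SE 0.06, limma adjusted p = 0.603) and higher values in 3 of 3 mice, and its groups did not overlap. Kcnip4, a subunit of voltage-gated potassium channels, had the largest difference, -0.44 (SE 0.61, adjusted p = 0.912). Its values were 8.24, 6.37 and 6.51 without and 7.46, 6.15 and 6.17 with C5a, so that mouse 2 differed from the other mice by more than the treatment did. Kcnip3, which also acts as a calcium-regulated repressor of transcription, differed by -0.16 and Vsnl1 by -0.11, and Ncald, Guca1a, Kcnip1, Kcnip2 and the photoreceptor protein Rcvrn by at most 0.07. On average, defining markers of neurons and glia were at the level of dim probesets. Their mean over 7 genes was 5.32 to 5.43 on the 6 arrays, below the array medians of 5.89 to 5.93, and 0 of 7 passed a threshold. The 8 epithelial markers had a mean of 5.43 to 5.57, and 0 of 8 passed. The brightest of the neural and of the epithelial markers were Map2 (5.79 to 6.53) and Krt8 (6.50 to 7.06).

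**Figure D2:**
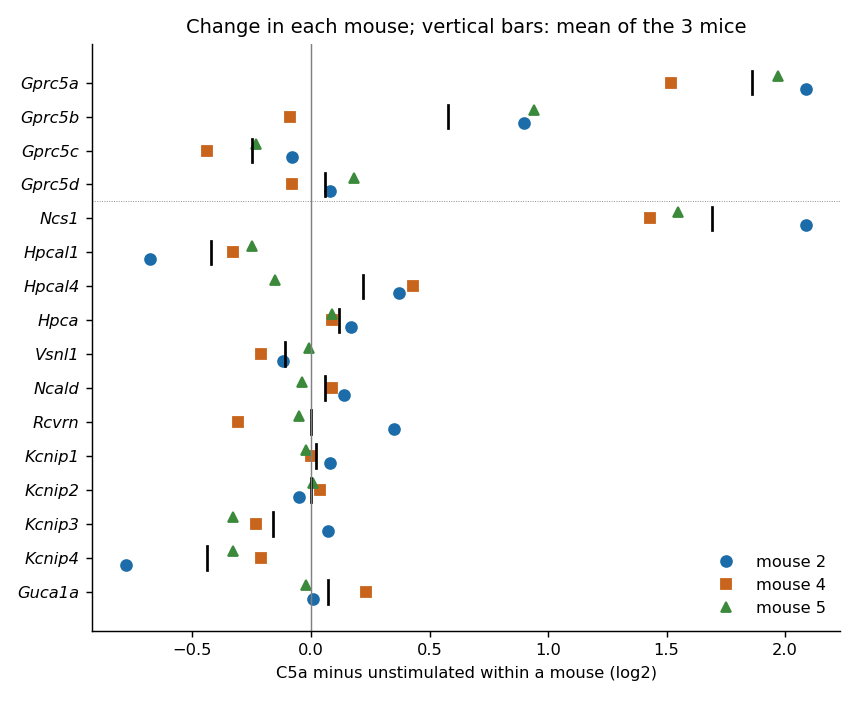
Difference between the C5a and the unstimulated culture within each mouse (log2) for the 4 GPRC5 receptors, above the dotted line, and 12 neuronal calcium sensors. Symbols give the mouse (circle 2, square 4, triangle 5) and black bars for the mean of the 3 mice. Gprc5a and Ncs1 lie at 1.43 or more in each mouse, and no other point lies above 0.94.

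Ranked among all probesets, Gprc5b had the 660th highest log2 fold change of 35556 and Hpcal4 the 3909th, while Hpcal1 had the 1307th lowest and Gprc5c the 3239th lowest. The methods take as changed what has p under 0.05 without adjustment together with 1.5-fold or more, called the thresholds of the methods here. With limma, 2.6% of all probesets passed them, made up of 1.47% that were higher and 1.12% that were lower. The methods' t-test gave 1.87%. Of the 4 relatives 0 passed by either test. Gprc5a and Ncs1 passed, which their choice makes no finding.

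**Figure D3:**
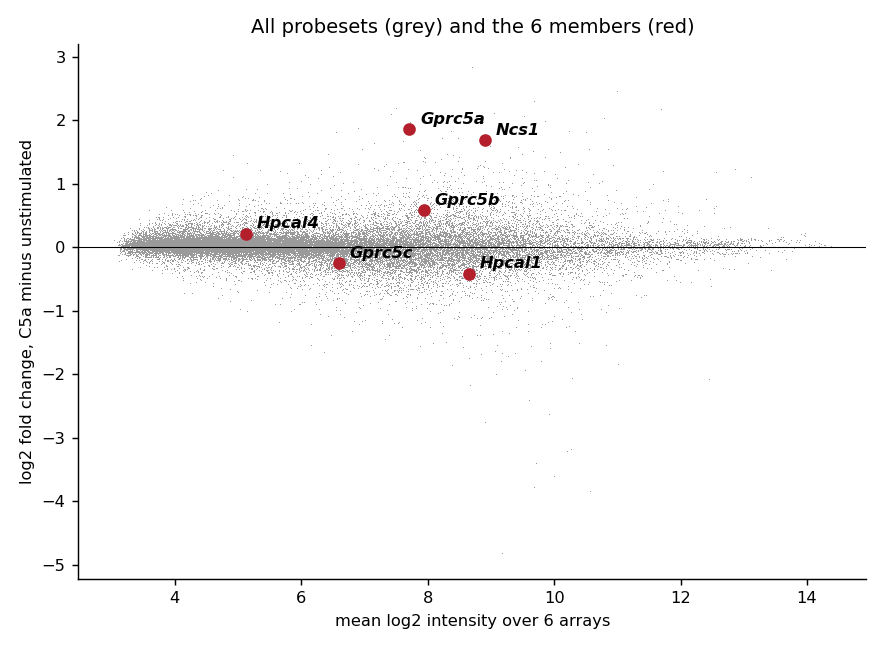
Mean log2 intensity over the 6 arrays (horizontal) and log2 fold change, C5a minus unstimulated (vertical), of all 35556 probesets in grey, with the 6 members in red. Gprc5a at 1.86 and Ncs1 at 1.69 lie near the upper edge at middle intensity, and the other 4 members lie between -0.42 and 0.58.

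Genes with a pattern like Gprc5a were sought by Pearson's r over the 6 arrays among 2186 genes whose values spanned at least 1 log2 unit. The 5 highest were Txnrd1 (r = 0.998), Ugdh (0.997), Gnl3 (0.994), St6galnac4 (0.994) and Csrp2 (0.990). Txnrd1 encodes thioredoxin reductase, Ugdh the enzyme that makes UDP-glucuronic acid, Gnl3 a nucleolar GTP-binding protein, St6galnac4 a sialyltransferase and Csrp2 a LIM domain protein. Txnrd1 came closest in size as well, with 9.63, 9.74 and 9.41 without and 11.78, 11.07 and 11.34 with C5a, a log2 fold change of 1.81. Like Gprc5a it was highest with C5a in mouse 2 and lowest without C5a in mouse 5. Ncs1 stood 12th in this order, with r = 0.983.

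For Ncs1 the 5 highest were Dock5 (r = 0.993), Gfpt2 (0.985), Clic4 (0.984), Ugdh (0.983) and Tnfrsf12a (0.983), and Gprc5a came next. Dock5 encodes an exchange factor for Rac, Gfpt2 an enzyme of the hexosamine pathway, Clic4 an intracellular chloride channel protein and Tnfrsf12a the receptor of TWEAK. Dock5 had 7.35, 7.93 and 7.77 without and 9.20, 9.09 and 9.06 with C5a, and like Ncs1 it was lowest without C5a and highest with C5a in mouse 2. All points of such an r come from the same 6 arrays in 2 groups, so that any gene with a large and even difference scores high, and 49 genes had r over 0.95 with Gprc5a and 45 with Ncs1. With the mean of each mouse subtracted first, 1 of the 5 genes stayed among the 5 highest for Gprc5a, Gnl3, and 1 for Ncs1, Dock5.

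**Figure D4:**
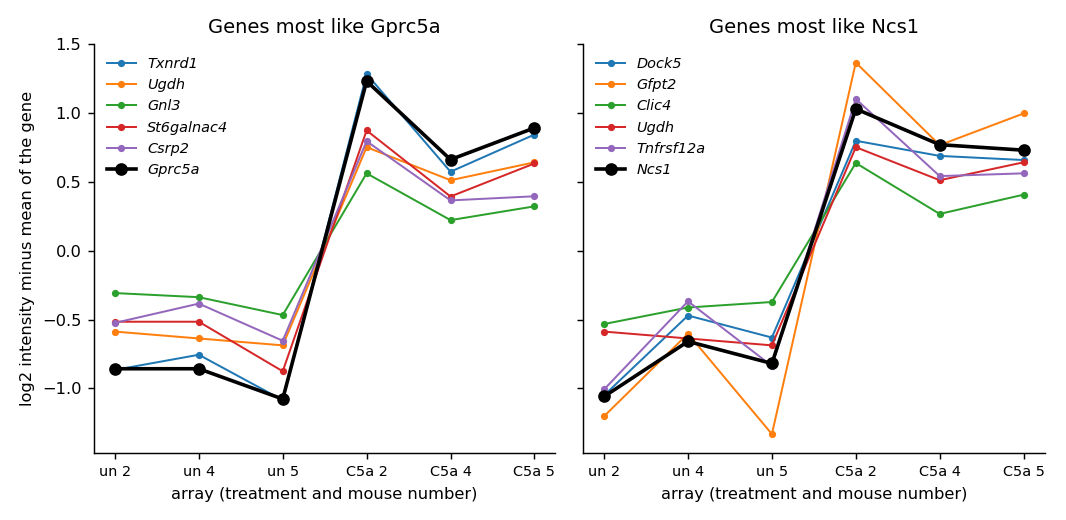
Log2 intensity minus the mean of each gene over the 6 arrays, for Gprc5a (left, black) and Ncs1 (right, black) and the 5 genes with the highest Pearson's r to each (coloured lines). The horizontal axis gives the unstimulated (un) and the C5a arrays of mice 2, 4 and 5. Lines join the arrays for legibility only, and all genes lie below 0 on the unstimulated and above 0 on the C5a arrays.

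Retinoic acid genes were compared because Gprc5a is known as a retinoic acid target. Of 19 measured genes of the retinoic acid pathway 0 passed a threshold without a block for the mouse, 11 had log2 fold changes above 0 and the median was 0.00, against -0.01 over all 19938 genes. The smallest p belonged to Aldh1a3, an enzyme that makes retinoic acid, with a log2 fold change of 0.50 (SE 0.19, limma adjusted p = 0.406) and higher values in 3 of 3 mice. Tgm2, tissue transglutaminase, and Crabp2, which carries retinoic acid to the nucleus, had 0.70 and 1.45 (adjusted p = 0.476 and 0.520), both higher in 3 of 3 mice. Crabp2 had 6.85, 8.43 and 7.44 without and 8.19, 10.32 and 8.57 with C5a, so that the unstimulated culture of mouse 4 lay above the C5a culture of mouse 2. Aldh1a1, which like Aldh1a3 makes retinoic acid, had the lowest log2 fold change of the list, -0.62 (SE 0.73, limma adjusted p = 0.888). Its values were 10.16, 8.12 and 9.94 without and 9.28, 7.56 and 9.53 with C5a, lower in 3 of 3 mice but with overlapping groups, since mouse 4 was low in both. With a block for the mouse, which removes the level of each animal, Crabp2 and Tgm2 passed the thresholds of the methods as higher. Aldh1a1 passed as lower, and the limma adjusted p of Crabp2, Tgm2 and Aldh1a1 was 0.0869, 0.160 and 0.116. In that fit 2.22% of 19938 genes passed as higher and 2.21% as lower. Of all probesets, 18.3% were higher and 17.7% lower in all mice. The receptors Rara, Rarb and Rarg differed by 0.21, -0.08 and 0.12, and Cyp26a1 and Cyp26b1, which break retinoic acid down, by 0.00 and 0.19.

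Among 16 measured binding partners of NCS1, Itpr3 alone passed the thresholds of the methods. Of all 19938 genes, 1.91% passed these thresholds as higher, a share that also stands beside the lists that follow. Itpr3, an inositol trisphosphate receptor that releases calcium from the endoplasmic reticulum, had 8.36, 8.15 and 8.50 without and 9.14, 8.87 and 8.98 with C5a, and the groups did not overlap. The log2 fold change was 0.66 (SE 0.12), which did not pass over all probesets (limma adjusted p = 0.157). Itpr2 differed by -0.15, and the phosphatidylinositol 4-kinases Pi4ka and Pi4kb by -0.02 and -0.06. Cacna1a, a calcium channel subunit, differed by -0.20 (adjusted p = 0.462), Kcnd2, a potassium channel, by 0.12 and Ric8a, an exchange factor for G-protein alpha subunits, by 0.14. The median of the list was 0.01.

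Of 17 genes of calcium entry and stores, Orai2 alone passed the thresholds of the methods. Orai2, a pore subunit of store-operated calcium channels, had 7.51, 7.98 and 7.93 without and 9.31, 8.62 and 8.52 with C5a, a log2 fold change of 1.01 (SE 0.24, limma adjusted p = 0.221), with the largest change, 1.80, in mouse 2. Orai1 and Orai3 differed by -0.09 and -0.06. The calcium pumps Atp2a2 of the endoplasmic reticulum and Atp2b1 of the plasma membrane both had 0.58 (adjusted p = 0.288 and 0.301) and were higher in 3 of 3 mice, and Mcu, the mitochondrial uniporter, had -0.18. Of 21 calmodulin, S100 and other EF-hand genes 0 passed. Calm2, Pvalb, Calb1 and Efhd2 differed by 0.24, -0.25, 0.13 and 0.57 (adjusted p = 0.271, 0.381, 0.568 and 0.658).

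Of 12 genes of calcineurin and NFAT, the calcium-activated phosphatase and the transcription factors it releases to the nucleus, Nfatc1 and Nfatc2 passed the thresholds of the methods. Nfatc2 had 6.42, 6.79 and 5.92 without and 9.13, 7.87 and 8.39 with C5a, a log2 fold change of 2.08 (SE 0.37, limma adjusted p = 0.155). Nfatc1 had 8.18, 8.45 and 7.95 without and 10.07, 8.97 and 9.35 with C5a, a log2 fold change of 1.28 (SE 0.29, adjusted p = 0.205). The groups did not overlap in either gene, and in each the change was smallest in mouse 4, as it was for Gprc5a and Ncs1. The same held for the genes named above as most like Gprc5a or Ncs1. Itpr3 and Orai2 changed least in mouse 5, by 0.48 and 0.58. The calcineurin subunit Ppp3cb and Rcan3, a calcineurin inhibitor, both had -0.28 (adjusted p = 0.453 and 0.546), and the median of the list was 0.03.

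Over all these lists 108 related genes were measured. The lists were chosen with earlier results of these data known, so that the shares given here describe these genes and test nothing. None passed limma over all probesets, 10 had an unadjusted p under 0.05, and 4 were higher and 0 lower at the thresholds of the methods, or 3.70% and 0%, against 1.91% and 1.62% of 19938 genes. A block for the mouse raised these counts to 6 higher and 1 lower (5.56% and 0.926%) by adding Crabp2, Tgm2 and Aldh1a1, against 2.22% and 2.21% of all genes in that fit. Without mouse 4 they were 7 and 1, with Crabp2, Aldh1a1, Atp2a2 and Atp2b1 added. Over all 35556 probesets the number past these thresholds also rose without mouse 4, from 923 to 1292. Of the markers of endothelium and adipocytes 0 passed (with the block Lpl did, at -0.64), and of those of chondrocytes 1, Sox9, with -0.71. In addition, 3 of 6 markers of smooth muscle and pericytes, Cspg4, Des and Cnn1, passed the thresholds of the methods with log2 fold changes of 1.70, 1.30 and 0.63. The others, Acta2, Rgs5 and Myh11, differed by 0.11, 0.03 and -0.16. The log2 summed intensity of these 6 markers was 13.71 to 13.83 without and 13.86 to 14.18 with C5a, and Acta2 alone had 13.44 to 13.71. The part of these markers in the changes of Gprc5a and Ncs1 was not tested.

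**Figure D5:**
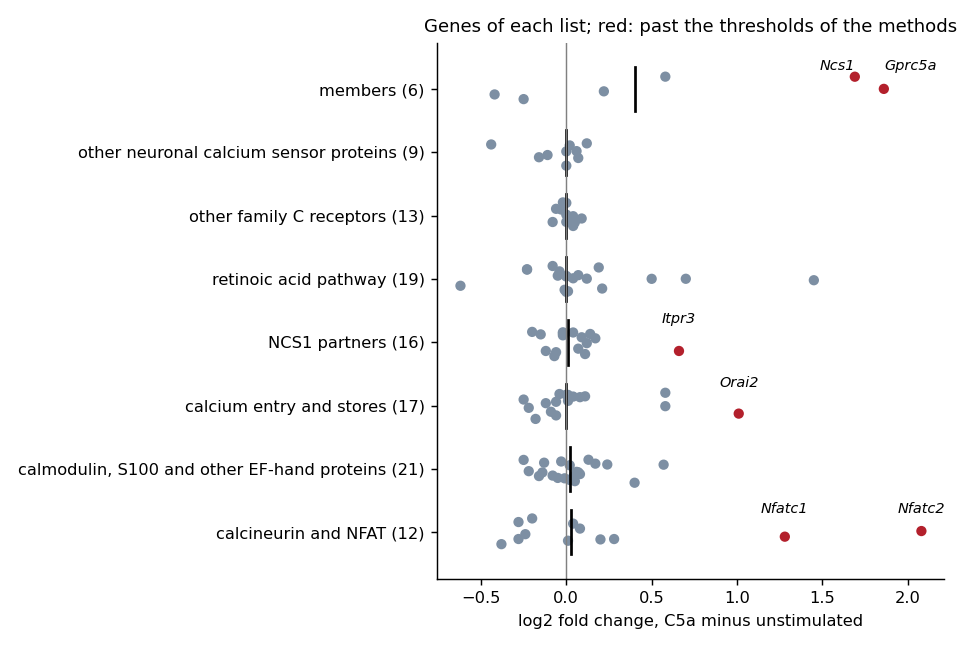
Log2 fold change, C5a minus unstimulated, of each measured gene in the lists named on the left, with the number of genes in brackets. Red points passed the thresholds of the methods, grey points did not, and black bars are list medians, which lie between 0.00 and 0.03 for the 7 lists below the members. The vertical scatter within a row has no meaning.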

How the data were processed

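Total RNA of 6 osteoblast cultures was labelled and hybridized to Mouse Gene 1.0 ST arrays. The authors used Affymetrix Expression Console, then BRB-ArrayTools, and deposited log2 intensities per probeset after robust multiarray averaging (RMA). Program versions are not given in the sources used here. RMA brings arrays to a common distribution, and the array medians were 5.89 to 5.93.

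All 35556 probesets were compared with limma (version 3.58.1, R 4.3.3; lmFit and eBayes, no filter), and p-values were adjusted after Benjamini and Hochberg. The fold threshold of the methods was read as at least 1.5. Names came from the platform annotation (21789 probesets name 1 gene), and 175 of 189 list entries were measured. Members and lists were chosen with earlier results of these data known. Genes are named as members, as close relatives, by smallest p (up to 4 per list) or threshold, or by highest r. Both cultures came from the cells of 1 mouse, and the number in the sample names was taken as the mouse: deviations from group means correlated at 0.495 to 0.684 within and -0.446 to -0.0353 between mice. The deviations of a group cancel out over its arrays, so that the values between mice are no separate support. The limma step was tested on simulated data. The alternatives were a block for the mouse, robust estimation with a variance trend, the t-test of the methods, only probesets above the 40th percentile of the mean, probesets naming 1 gene, median centring, quantile normalization, leaving out arrays or mice, another probeset, and r without mouse means.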

Additional observations from a re-analysis of the deposited data

How the results depend on the processing

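The log2 fold changes of all 6 members kept their direction under every alternative that measured them (the filter at the 40th percentile left out Hpcal4). For Gprc5a and Ncs1, whose groups did not overlap, leaving out arrays or mice could not have turned the direction. With 1 array or 1 mouse left out, the log2 fold change of Gprc5a ran from 1.71 to 2.03. That of Ncs1 ran from 1.49 (without mouse 2) to 1.82. The 4 relatives passed the adjusted threshold in no setting. Among probesets above the 40th percentile, and among those naming 1 gene, Ncs1 was within the adjusted threshold, but as Ncs1 was chosen by this contrast this supports nothing. Each mouse has 1 array in each group, so that the mouse as a block cannot change a log2 fold change. Robust estimation with a variance trend and a narrower choice of probesets cannot change it either. It was therefore 1.86 for Gprc5a and 1.69 for Ncs1 in these settings by construction. The block changed no call of a relative. The probesets past the adjusted threshold numbered 5, 0 with the methods' t-test, and 0 to 2 with an array or a mouse left out. At the thresholds of the methods, 923 probesets passed, 587 to 1314 with an array or mouse left out. Of the related genes 4 passed these thresholds, 7 (6 higher, 1 lower) with the mouse as a replicate block, and 5 to 8 with an array or mouse left out. With mouse means subtracted, 1 of 5 genes most like Gprc5a, and 1 of 5 most like Ncs1, stayed. The causes were not tested. The arrays give no detection call, so that low values such as those of Hpcal4 may be near background.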
